A study of Mus musculus with 200 samples.

Results

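The 29 libraries described here carry the label Epi (epiblast) and are the controls of a knockout screen in mouse peri-implantation embryos. In 26 of them trophoblast markers go against that label, as described below. They were taken by title as every Epi control of the screen table, grouped by the batch number in the title, and no knockout library entered any value. They are 29 of the 148 libraries of that table and of the 200 libraries of the series. Batch 7 had 2 libraries and each of the other 9 batches had 3. All 29 carry the genotype label Wild type, the tissue label Epi and the stage label E5.0. The titles of batch 8 read 6.0 and those of the other 9 batches read 5.0, so that the title and the stage label of batch 8 differ. The stage and the batch cannot be told apart for this group, because no other batch was titled 6.0 and batch 8 held no control titled 5.0.

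The embryos came from natural matings and, for the peri-implantation stages, were grown in a 3-dimensional culture from the blastocyst on. Whether the controls were injected with any reagent is not given in the sources used here, and neither is the strain. Each library was made by Smart-seq2, which amplifies polyadenylated RNA from very few cells, from the lysate of roughly 10 to 100 cells after 17 cycles of amplification. The submitters speak of biological replicates but do not say which embryos were pooled, so the p-values below measure the spread between these libraries, part of which may be technical. Values are given in TPM, a transcript level scaled for transcript length and for the total of the library, and read depth is unknown.

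At implantation the mouse conceptus holds the epiblast, which founds the embryo proper, the primitive endoderm, which lines it and gives the visceral and parietal endoderm, and the trophectoderm, whose polar part becomes the extraembryonic ectoderm and whose mural part becomes trophoblast giant cells. Around implantation the epiblast keeps Pou5f1, loses the naive factors Klf2, Klf4, Esrrb, Tfcp2l1 and Zfp42, and gains formative genes such as Otx2, Fgf5 and the DNA methyltransferase Dnmt3b. The extraembryonic ectoderm, which touches the epiblast, is known for Elf5, Cdx2, Eomes, Bmp4 and keratins. Giant cells secrete the prolactin-like hormones of the Prl3d genes, and the endoderm makes apolipoproteins, transthyretin and basement membrane.

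Dnmt3b, among the genes that set the batch 8 libraries apart below, methylates CG dinucleotides. The sequences before the starts of 2 genes that were high in batch 8 (Pou5f1 and Dnmt3b) and of 2 that were near 0 there and high in all other libraries (Elf5 and Krt7) are therefore shown. They are the 160 bases just before the RefSeq start on GRCm38.p6, all on the plus strand, with each CG in capitals. Pou5f1 lies at chr17:35505872-35506031, Dnmt3b at chr2:153649289-153649448, Elf5 at chr2:103423908-103424067 and Krt7 at chr15:101412243-101412402.
Pou5f1: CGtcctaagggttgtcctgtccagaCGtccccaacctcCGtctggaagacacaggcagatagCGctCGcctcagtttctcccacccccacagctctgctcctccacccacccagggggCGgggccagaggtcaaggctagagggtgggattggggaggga
Dnmt3b: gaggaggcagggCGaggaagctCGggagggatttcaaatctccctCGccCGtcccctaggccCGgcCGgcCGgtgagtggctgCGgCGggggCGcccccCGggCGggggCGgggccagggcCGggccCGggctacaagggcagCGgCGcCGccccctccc
Elf5: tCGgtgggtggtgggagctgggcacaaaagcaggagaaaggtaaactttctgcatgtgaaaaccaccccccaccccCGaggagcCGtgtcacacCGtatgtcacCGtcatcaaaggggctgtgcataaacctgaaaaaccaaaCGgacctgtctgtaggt
Krt7: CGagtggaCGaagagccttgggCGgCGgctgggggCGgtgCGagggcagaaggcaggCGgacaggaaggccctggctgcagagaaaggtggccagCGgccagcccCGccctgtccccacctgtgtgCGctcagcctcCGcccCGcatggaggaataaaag
The motif searched was CG, which reads the same on both strands. Pou5f1 and Elf5 each held 6 of them, a number reached or passed by 42.4% of the 32851 RefSeq promoters cut to the same 160 bases. Krt7 held 12, a number reached by 24.6% of promoters, and Dnmt3b held 18, a number reached by 10.7%. At least 1 CG stood in 86.6% of all promoters and the median was 4. These matches describe the letters of the window and say nothing of methylation in these cells.

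The label Epi was checked against markers of each lineage, given as the summed TPM of each list in a library. The 10 epiblast markers summed to between 3151 and 3440 TPM in the 3 libraries of batch 8. In the other 26 libraries they summed to between 432.6 and 1700 TPM, without overlap. Utf1 was a large part of these sums in batches 8 and 7. It averaged 1462 TPM in batch 8 and 1389 TPM in batch 7, where the sum was 1626 to 1646 TPM. Of the 10 markers, 8 were higher and 1 lower in batch 8, against 2 higher and 7 lower in batch 7. The 10 trophectoderm and extraembryonic ectoderm markers summed to between 8.48 and 15.1 TPM in batch 8 and to between 348 and 894 TPM in the other 26, again without overlap. Of these 10 markers, 8 or 9 reached 1 TPM in each of the 26 libraries, against 1 or 2 in those of batch 8, where 4 were listed at 0 in all 3 libraries.
The 14 primitive and visceral endoderm markers summed to between 3.40 and 18.3 TPM in batch 8, with 9 of them at 0 in all 3 libraries. They reached 488 to 535 TPM in batch 3, 244 to 289 TPM in batch 6 and 28.3 to 127 TPM in the remaining 20 libraries. The 5 giant cell markers summed to 7932 to 8094 TPM in batch 3, 1732 to 2130 TPM in batch 5 and 282 to 654 TPM in batch 1. Batch 8 held 0 to 2.56 TPM of them and the other groups 52 to 318 TPM. In batch 7, 4 of the 5 markers were listed at 0 in both libraries and the sum was that of Hand1, which averaged 284 TPM. Hand1 averaged 216 TPM in batch 2, most of a sum of 202 to 233 TPM. Blood markers summed to at most 58.2 TPM and stromal, endothelial and decidual markers to at most 14.7 TPM in any library.
Measured by these lists, batch 8 matched its Epi label, while the libraries of the other 9 batches carried trophoblast markers that go against it. They are therefore called libraries labelled Epi control below. In such bulk samples, fewer cells of a type and less RNA per cell cannot be told apart.

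**Figure D1:**
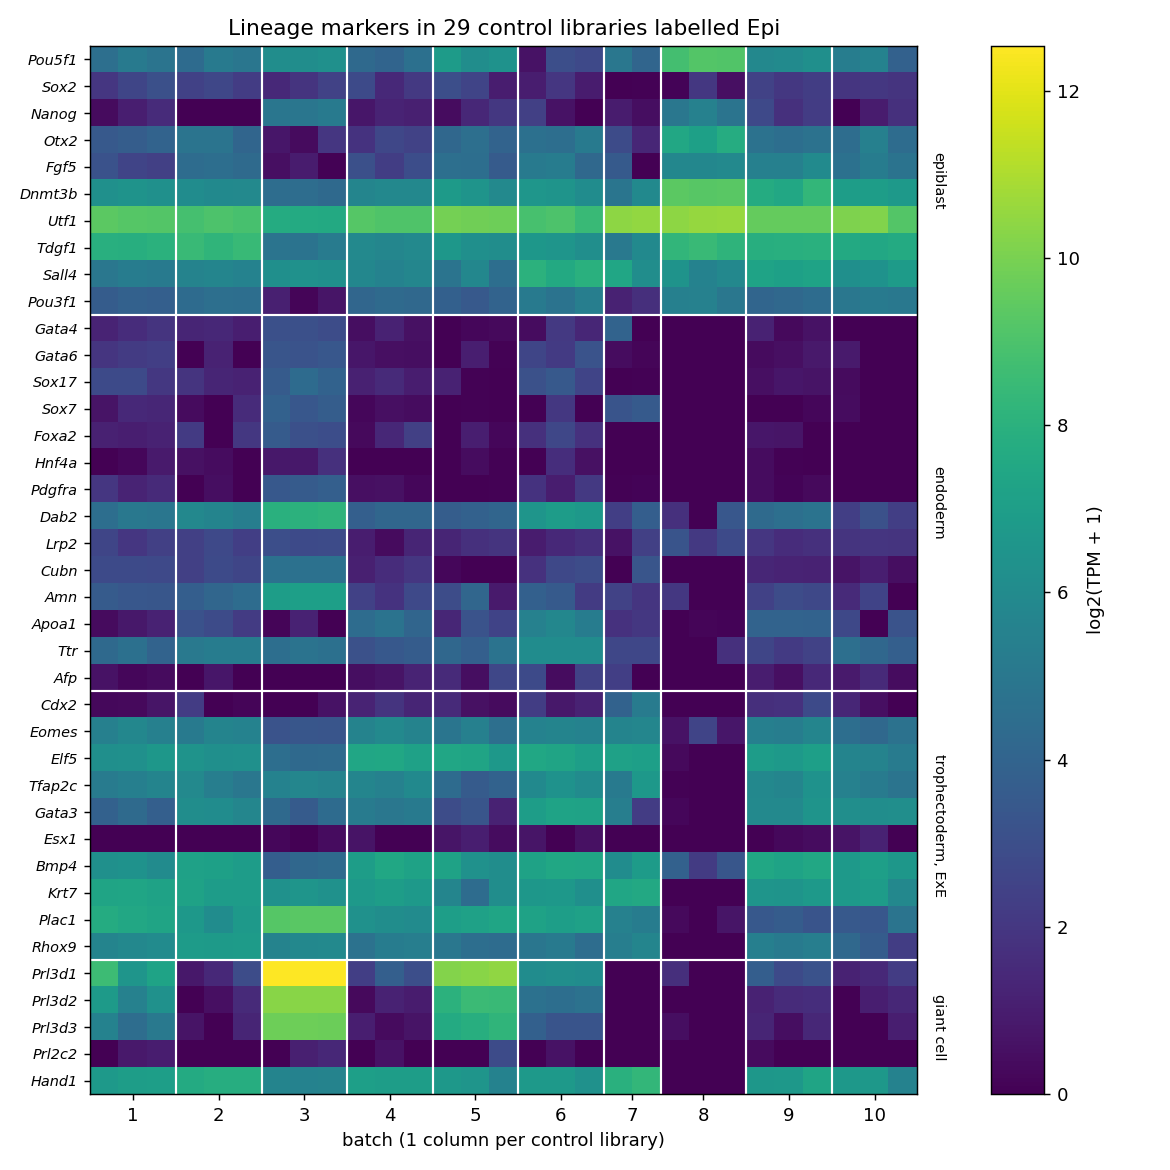
Heat map of log2(TPM + 1) for lineage markers (rows) in the 29 control libraries (columns, by batch). The 3 columns of batch 8 are bright for epiblast markers and dark for trophoblast and endoderm markers, whereas most trophoblast rows, with Cdx2 as an exception, are bright in the other columns.

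**Figure D2:**
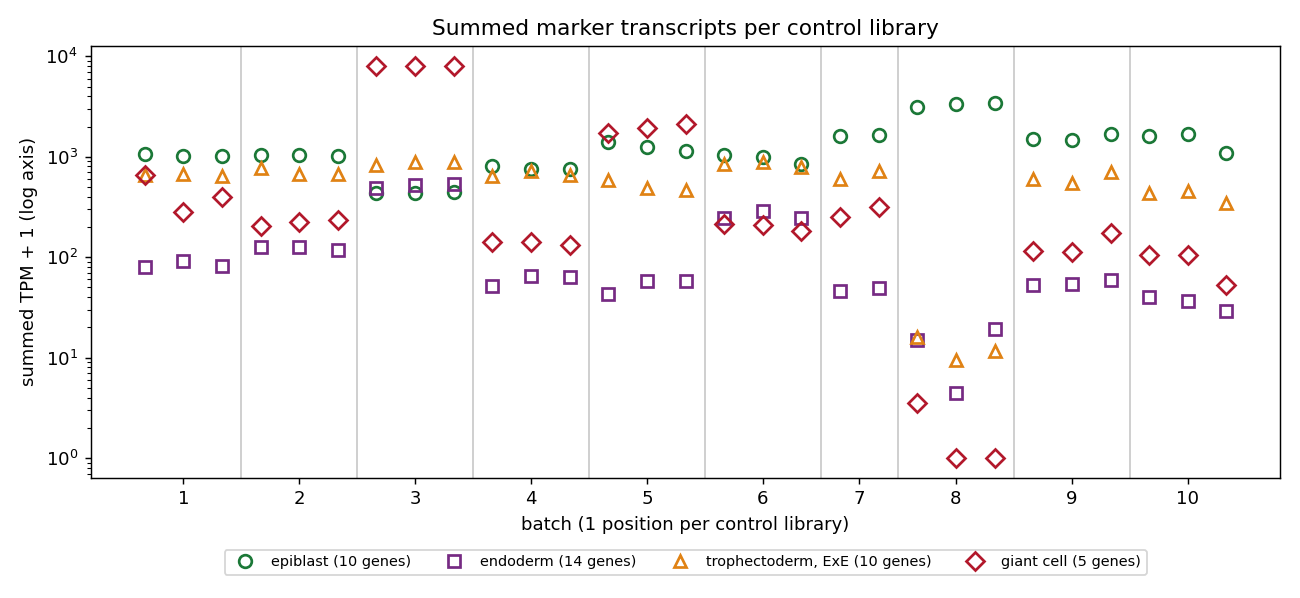
Summed TPM + 1 of the epiblast, extraembryonic ectoderm, endoderm and giant cell markers in each control library, on a log axis, ordered by batch. Epiblast sums lie above 3000 TPM and extraembryonic ectoderm sums below 20 TPM in batch 8 alone; the giant cell sum peaks in batch 3.

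A second table of the series, scaled separately, gives a level for comparison and no test was made across the tables. Its 3 wild-type Epi controls had epiblast sums of 2092 to 2681 TPM and extraembryonic ectoderm sums of 297 to 417 TPM. Its 3 primitive endoderm controls had an endoderm sum of 3305 to 3814 TPM, above that of any library here, and an extraembryonic ectoderm sum of 130 to 148 TPM. Their epiblast sum was 1167 to 1302 TPM, of which Sall4 alone gave 887 to 1049 TPM. That sum lay within the range of the 26 libraries outside batch 8 (432.6 to 1700 TPM), so a sum of this size does not mark epiblast by itself. There Elf5 stood at 71.5, 95.7 and 70.2 TPM in the Epi controls and was listed at 0 in the endoderm controls.

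Library quality differed between batches. The tables sum to 986798 to 990832 TPM per library. Batch 7 stood apart before any lineage gene was read: the ribosomal RNA precursor Rn45s took 18.9% and 22.2% of its TPM, against 0.051% to 1.22% elsewhere, and 8331 and 8383 genes reached 1 TPM. That number was 9131 to 9325 in batch 8 and 9004 to 11299 in the rest. Within a batch, libraries correlated with r from 0.886 in batch 7 to 0.987 in batch 9, and between batches with r from 0.775 to 0.968, across genes on the log2(TPM + 1) scale. For the 3 libraries of batch 5, a library of another batch was at least as close as the nearest of their own. No pair of libraries held identical values.

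Which genes tell the control groups apart was asked with limma on log2(TPM + 1) for the 14097 of 25006 genes that reached 1 TPM in at least 2 libraries. The moderated F test of equal group means called 9462 genes, 67.1% of those tested, at a Benjamini-Hochberg adjusted p under 0.05. The median gene had 0.523 of its variance between groups, and 0.754 among genes with a mean of at least 10 TPM. For the median gene, the SD was 0.475 between groups and 0.49 within a group on the log2 scale. Among the 45 pairs of groups, the number of called genes ran from 266 (batches 1 and 4) to 6048 (batches 6 and 8), with a median of 3107. All 9 pairs with batch 8 lay between 4875 and 6048 genes. The highest without it was 5534 genes, between batches 7 and 9. Batches 1, 2 and 4 were near each other, with 581 genes called between 1 and 2 and 594 between 2 and 4.

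Each group was then compared with the mean of the other 9 group means in the same fit. For batch 8, 3432 genes were higher, 24.3% of those tested, and 3184 were lower, 22.6%. The 6616 calls came to 4261 with library weights, which give noisier libraries less influence. All 3 libraries of batch 8 lay above the other 26 for 904 genes (6.41%) and below them for 599 genes (4.25%). The median gene was shifted by -0.13 on the log2 scale. Folds below are differences of mean log2(TPM + 1), which understate the change of low genes, and where a gene was listed at 0 in every library of a group no fold is given.

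The epiblast of batch 8 was marked by Pou5f1 (Oct4), the POU factor that sustains pluripotency. Pou5f1 stood at 443, 586 and 564 TPM in batch 8 (531 ± 77.3, SD, n = 3). In the other 26 libraries it ran from 0.515 to 118 TPM with a median of 32.2. The groups did not overlap, and the difference was 4.12 ± 0.33 (SE) log2 units (limma adjusted p = 4.5e-11). Batch 5 came next with 118, 70.8 and 83.1 TPM, then batch 3 with 70.4, 69.9 and 78.3 TPM and batch 9 with 57.6, 63.6 and 75.6 TPM, 3 groups whose ranges overlapped. Batches 10, 2, 1, 7 and 4 followed between 13.8 and 46.8 TPM, each overlapping its neighbour. Batch 6 was lowest, at 0.515, 6.95 and 5.79 TPM, below every other library.

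Otx2, the homeobox factor of the formative epiblast, was at 181, 141 and 219 TPM in batch 8 (180 ± 39.2, n = 3) and at 0.278 to 43.2 TPM elsewhere, median 16.5. The difference was 3.90 ± 0.30 log2 units (limma adjusted p = 2.24e-11). Dnmt3b reached 656, 624 and 640 TPM in batch 8 and 18.2 to 315 TPM elsewhere, a difference of 3.16 ± 0.17 (limma adjusted p = 2.45e-14). Both genes separated batch 8 from every other library, as Pou5f1 did.
Fgf5, a growth factor of the post-implantation epiblast, did not: batch 8 had 54.6, 55.7 and 58.7 TPM and batch 9 had 43.3, 42.8 and 62.1 TPM. Nanog, a homeobox factor of the naive epiblast that returns in the posterior epiblast, was at 29.9, 44.9 and 27.4 TPM in batch 8 and at 29.2, 29.1 and 33.9 TPM in batch 3. It was listed at 0 in all 3 libraries of batch 2 and had a median of 1.11 TPM in the 26. Sox2, the partner of Oct4, was low in every library, at 0.0927, 3.04 and 0.443 TPM in batch 8 and at 0 to 7.39 TPM elsewhere. Its level did not follow that of Pou5f1. The Epi controls of the second table also held little Sox2, 1.93 to 4.28 TPM.

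Of the 20 formative genes, all of which were tested, 14 were higher in batch 8 and 2 lower, with a median difference of 1.78 log2 units. Fgf15 was at 152, 148 and 117 TPM against at most 35.7 TPM elsewhere (4.03 ± 0.38, limma adjusted p = 1.68e-09). The kinase gene Pim2 averaged 797 TPM, the factor Tcf15 47 TPM and Dnmt3a 69.8 TPM. Dnmt3l, a cofactor of the DNA methyltransferases, was among the lower, at 70.4 TPM.
Of the 16 core pluripotency genes, 9 were higher and 4 lower in batch 8 (median 0.96). Batch 9, where 26.1% of all tested genes were higher, also had 9 of these 16 higher and none lower (median 0.65). It had 10 of the 20 formative genes higher and none lower (median 0.85). In batch 8, besides Pou5f1 and Nanog, the higher core genes included Tdgf1, the Nodal co-receptor, and Lin28a, an RNA-binding repressor of let-7. Tdgf1 averaged 316 TPM in batch 8 but 336 TPM in batch 2. Those lower in batch 8 were Sox2, L1td1, Dppa2 and Dppa4, with differences from -0.98 to -0.41. The call for Sox2 was lost after quantile normalization (limma adjusted p = 0.18) and without batch 8 replicate 1 (0.285) or replicate 3 (0.163).
Most naive genes tested went the other way. Of 17 tested, 10 were lower and 1 higher in batch 8, with a median of -1.38. The summed TPM of the list did not separate batch 8. It was 1883 to 2631 TPM there and 1988 to 10891.5 TPM in the other 26 libraries. Those 26 carried trophoblast markers, and which cells their naive transcripts came from was not tested. Zfp42 (Rex1) was at 13.6, 14.4 and 6.69 TPM against 125 to 315 TPM in the other 26 (-4.02 ± 0.14, limma adjusted p = 4.3e-19). Klf2, Esrrb and Tfcp2l1 were listed at 0 in all 3 libraries, while each was detected in all other 26, from 1.55, 1.70 and 1.30 TPM upward. The higher member was Fgf4, the epiblast ligand read by neighbouring lineages, at 54.5 ± 18.1 TPM.

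Signalling genes of the epiblast were called in both directions in batch 8, where 24.3% of all tested genes were higher and 22.6% lower. Nodal, the TGF-beta ligand that keeps the epiblast primed, was at 29.9, 44.3 and 15.3 TPM in batch 8, above the highest other library at 13.2 TPM (2.59 ± 0.37, limma adjusted p = 1.8e-06). Its nuclear partner Foxh1 averaged 151 TPM and its feedback inhibitor Lefty2 17.5 TPM, each above all other libraries. Of 14 Nodal pathway genes tested, 5 were higher and 2 lower, the lower ones being the inhibitor Smad7 and the convertase gene Pcsk6, listed at 0. The median of this list was 0.06.
Of 12 FGF and ERK genes, 6 were higher and 3 lower (median 0.61). The ERK-induced genes Etv5 (74.4 TPM), Dusp4 (33.2 TPM) and Dusp6 (113 TPM) were among the higher, and Fos, Spry2 and the trophoblast receptor gene Fgfr2, listed at 0, were the lower.

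**Figure D3:**
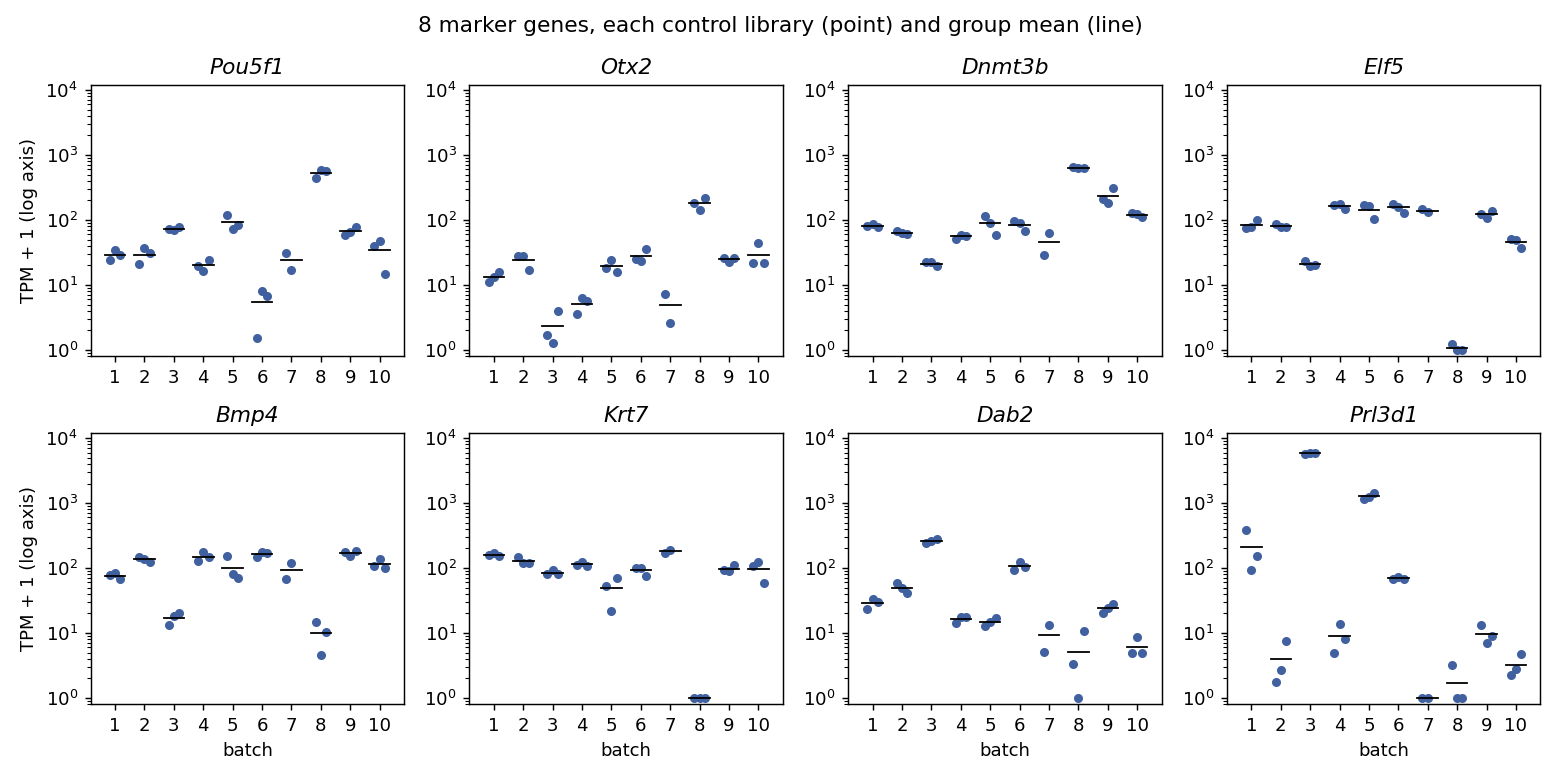
TPM + 1 on a log axis for 8 marker genes in each control library (points) with group means (lines), by batch. Pou5f1, Otx2 and Dnmt3b stand highest in batch 8, Elf5 and Krt7 lie at the floor there, and Prl3d1 and Dab2 peak in batch 3.

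Trophoblast transcripts were scarce in batch 8. Elf5, the ETS factor that holds the trophoblast stem state, was at 0.241, 0 and 0 TPM in batch 8. It ran from 18.5 to 178 TPM in the other 26 libraries, with a median of 104 (-6.39 ± 0.14, limma adjusted p = 4.1e-23). Its lowest group was batch 3 at 19.9 TPM and its highest batch 4 at 163 TPM. Eomes, a T-box factor of the same tissue, averaged 2.04 ± 2.47 TPM in batch 8 and lay between 8.32 and 57.8 TPM elsewhere. Krt7, a simple epithelial keratin, was listed at 0 in batch 8 and at 20.7 to 189 TPM elsewhere. Neither gene overlapped between batch 8 and the rest.
Bmp4, the ligand that the extraembryonic ectoderm sends to the epiblast, did overlap: batch 8 had 13.8, 3.59 and 9.28 TPM, batch 3 went down to 12.4 TPM, and the others averaged up to 171 TPM. Cdx2, the trophectoderm homeobox gene, was listed at 0 in batch 8 but was low in most groups, with a median of 1.04 TPM. It reached 14.6 and 36.7 TPM in batch 7.
Of the 15 trophoblast factors tested out of 16, 11 were lower and 2 higher in batch 8, with a median of -3.44. The 2 higher were Ascl2 and Spry1, at 26.6 and 40.7 TPM. Of the 20 keratin and placental genes tested out of 23, 16 were lower and none higher (median -3.01, or -5.44 with a pseudocount of 0.1). Genes at 0 enter both medians, whose sizes therefore depend on the pseudocount.

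Among the named genes, the widest gaps between batch 8 and the rest were in extraembryonic genes. Rhox5, a homeobox gene of placenta and endoderm on the X chromosome (chrX:37804842-37808876, GENCODE on GRCm38), was at 15.3, 8.51 and 6.43 TPM in batch 8 and between 1148 and 4867 TPM in the other 26 libraries (-8.19 ± 0.11, limma adjusted p = 3.68e-28). The fatty acid carrier gene Fabp3 stood at 1.65, 1.62 and 4.98 TPM against 404 to 4529 TPM, and Plet1, a surface marker of trophoblast progenitors, at 0.0149 TPM on average against 84.8 to 459 TPM. Gsta1, Krt19, Hand1 and Ly6a were listed at 0 throughout batch 8. Rhox copies resemble each other, and how reads were split between them is uncertain.
Keratins 8 and 18, which pair in simple epithelia, stayed detected in batch 8 at lower levels. Krt8 was at 96.4, 111 and 82 TPM against 487 to 1091 TPM, and Krt18 averaged 327 ± 85.9 TPM against 1069 to 2884 TPM.
Imprinted growth genes of the placenta were part of this pattern. H19 averaged 7.94 TPM against 169 to 686 TPM, and Phlda2, a brake on placental growth, 60 ± 14.6 TPM against 262 to 1474 TPM. Igf2 averaged 0.502 TPM in batch 8 and reached 390 and 264 TPM in batch 7. Of 17 imprinted genes tested out of 22, 9 were lower and 2 higher in batch 8. The higher ones were Nnat (45.2 TPM) and Meg3 (29.9 TPM).

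Most endoderm genes tested were also lower in batch 8. Gata4, Gata6 and Sox17, which specify primitive endoderm, were listed at 0 in all 3 libraries, and the adaptor Dab2 was at 2.36, 0 and 9.74 TPM against a median of 22.8 TPM. Of 16 endoderm factors and receptors, 13 were lower and 2 higher, the latter being Fst, an activin antagonist, and Lrp2 (megalin). The libraries of batch 8 lay below all others for 2 of the 16, and for 4.25% of all genes tested. Of 15 secreted products tested, 10 were lower, Spink1, Ctsh, Apoa2 and Trf among them at 0, and 1 higher. The higher one was the retinol carrier Rbp4, at 78.6, 53.1 and 40.9 TPM, second to batch 6. Apoe, which many cell types make, was at 399, 339 and 590 TPM, within the range of the others (278 to 1287 TPM).
Of 14 basement membrane genes tested, 7 were lower, led by the proteoglycan gene Srgn and nidogen (Nid1), and 2 higher, the collagen chaperone gene Serpinh1 and Fn1.

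Most glycolysis genes tested were higher in batch 8. Ldha was at 8723, 8147 and 8970 TPM against 768 to 3510 TPM elsewhere (2.60 ± 0.09, limma adjusted p = 2.12e-18). The glucose transporter gene Slc2a1 averaged 957 ± 128 TPM against at most 387 TPM, and Pkm 5859 ± 357 TPM against at most 3337 TPM. Eno1 averaged 10930 TPM. Of 18 genes of the list, 12 were higher and 1, the hypoxia gene Ndrg1, listed at 0, was lower (median 0.99). The lactate exporter gene Slc16a3 (5.54 ± 0.43) and the carbonic anhydrase gene Car14 (5.79 ± 0.52) had, with the neuronal vesicle gene Nsg1 (5.62 ± 0.33), the 3 largest rises of batch 8 among genes without overlap. Slc16a3 stood at 321, 393 and 458 TPM, Car14 at 186, 200 and 260 TPM and Nsg1 at 48.3, 83.2 and 93.8 TPM, where the other libraries reached at most 60, 26.6 and 6.45 TPM.
Of 15 ribosome biogenesis genes, 10 were higher and 1 lower (median 0.70), and of 18 mitosis genes 9 were higher and 3 lower. Of 15 p53 targets 9 were lower and 4 higher, with Perp, a desmosome gene, at 3.67 TPM against 24 to 286 TPM and Cdkn1a (p21) at 30.8 ± 5.20 TPM against 44.2 to 184 TPM. Of 11 immediate early genes tested 7 were lower and Ier2 alone was higher. Fos was at 3.44, 0.484 and 0 TPM in batch 8 and at 15.9 to 123 TPM elsewhere.
The amino acid response was split, with 6 higher and 7 lower of 15 ATF4-linked genes. Of 11 heat shock genes 7 were higher and 2 lower. Hspa1a was at 15.9, 24.8 and 16.1 TPM against at most 1.94 TPM, although its near copy Hspa1b makes the split of reads uncertain.

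Genes of later or other fates were called in both directions in batch 8, where 24.3% of all tested genes were higher and 22.6% lower. Both counts of streak genes lay below these shares. T (brachyury), which opens the primitive streak, was listed at 0 in all 3 libraries. Of 12 streak genes tested out of 18, 2 were higher, Fgf8 at 11.6 TPM and Nkx1-2 at 3.13 TPM, and 2 lower, Mixl1 and Lhx1, both at 0, the call for Lhx1 being lost with library weights (limma adjusted p = 0.093). The streak list summed to 22.5 to 28.2 TPM, within the range of the other 26 libraries (3.69 to 44.3 TPM). Of 10 neural genes 5 passed the filter, with Sox11 (8.45 TPM) and Nes (1.61 TPM) higher. The call for Nes was lost without batch 8 replicate 1 (limma adjusted p = 0.139) or replicate 3 (0.159) and with library weights (0.173). Of 12 germline genes 6 were higher and 1 lower: Dazl was at 55.5, 52.3 and 71.6 TPM against at most 30.1 TPM, Mael at 48.7 TPM and Dnd1 at 49 TPM. The germline list summed to 254, 192 and 312 TPM in batch 8 and to 78.7 to 199 TPM in the other 26, with an overlap at 1 library. Of 20 Polycomb and related chromatin genes, 8 were higher, Cbx2 and the CpG-binding gene Cxxc1 foremost, and 4 lower, Kdm6a, Suz12, Mtf2 and Eed.

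**Figure D4:**
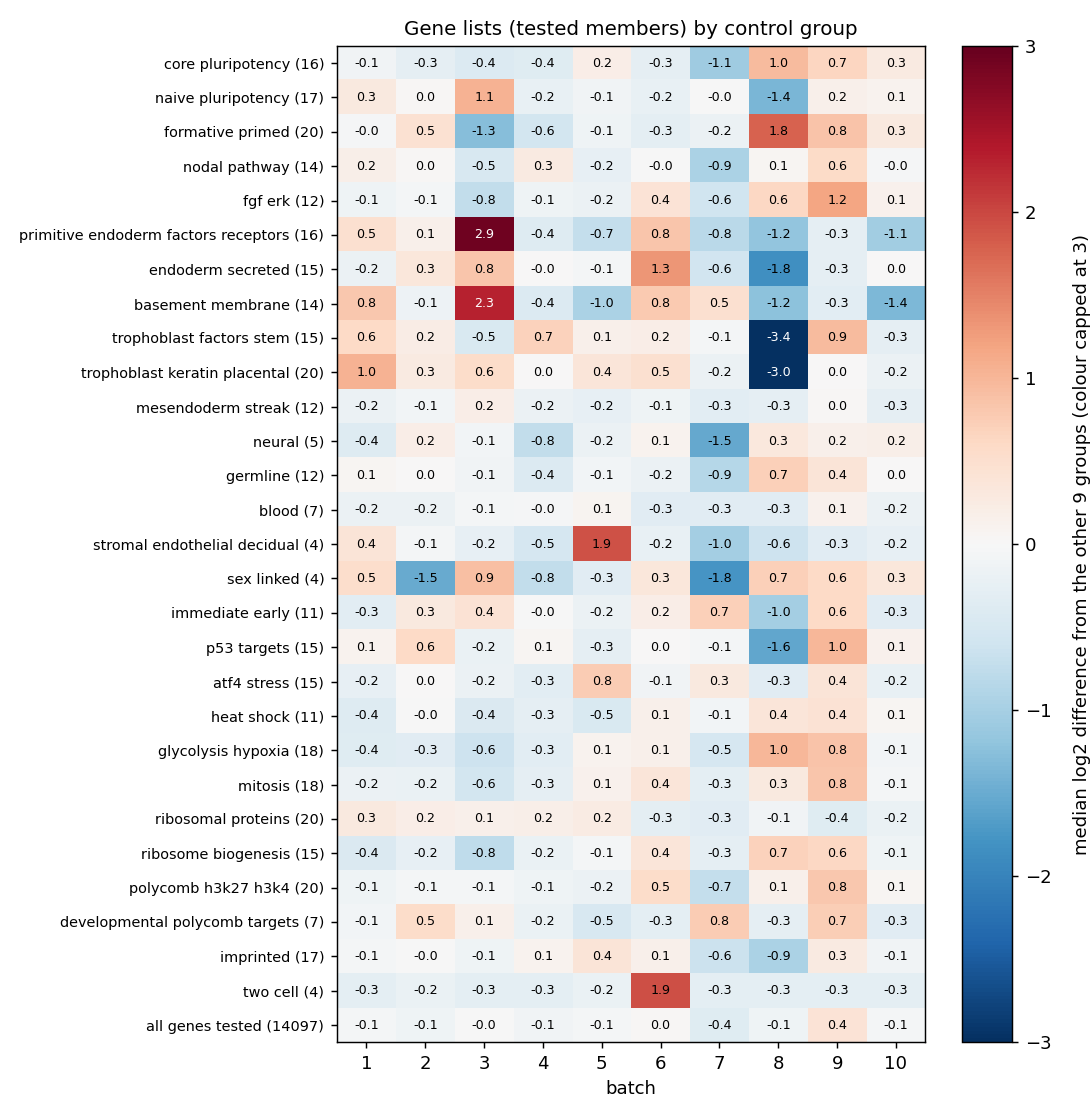
Median log2 difference of each gene list (rows, number tested in brackets) between a control group and the other 9 (columns), with colour capped at 3. Batch 8 is negative for the trophoblast and endoderm lists and positive for the formative list, and batch 3 is positive for the endoderm and basement membrane lists.

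Batch 3 combined placental lactogen and endoderm transcripts. In its contrast 1878 genes were higher (13.3%) and 1523 lower (10.8%), in all 3401 calls, or 6009 with library weights. Prl3d1 (chr13:27094190-27100258), which encodes placental lactogen I, stood at 5766, 5930 and 5902 TPM in batch 3 and 1164, 1258 and 1423 TPM in batch 5, while the median over the 26 libraries outside batch 8 was 12.6 TPM (batch 3 difference 8.73 ± 0.37, limma adjusted p = 4.66e-16). Prl3d2 and Prl3d3 had the same order, with 1248 to 1261 TPM and 855 to 859 TPM in batch 3. The 3 are near copies, so their individual levels are uncertain, but they were high in the same libraries. Hand1, a giant cell transcription factor, went the other way in batch 3, at 49.5, 45.5 and 47.4 TPM, and all other groups but batch 8 averaged more.
Of the 16 endoderm factors and receptors 14 were higher in batch 3 and none lower (median 2.92). Dab2 was at 245, 261 and 281 TPM (3.93 ± 0.36, limma adjusted p = 1.89e-09) and the cubilin partner Amn averaged 132 ± 4.88 TPM, both above every other library. Sox17 was at 11.1, 19.6 and 14.3 TPM and the PDGF receptor gene Pdgfra averaged 11.5 TPM. Of 14 basement membrane genes 12 were higher, among them Srgn (772 ± 39.8 TPM), Sparc (702 ± 32.4 TPM) and the collagen IV gene Col4a1 (39.2 ± 1.00 TPM).
Secreted endoderm products split: 8 were higher, Apom, Ihh and Ctsh in front, and 5 lower, including Apoa1, Cer1 and Rbp4. In the formative list 13 of 20 were lower and none higher (median -1.27), with Otx2 at 1.32 TPM, Fgf5 at 0.463 TPM and Fgf15 listed at 0. Naive genes were higher for 8 of 17, as Klf2 at 59.7, 48.3 and 46.5 TPM, Klf4 at 15.7 TPM and Tcl1 at 47.8 TPM. T was detected here, at 8.04, 3.86 and 4.64 TPM, and no other group averaged over 0.453 TPM. The largest falls without overlap were those of Ak1 (5.19 TPM), Pim2 (13.2 TPM) and Mest (6.41 TPM), and 11 of 18 mitosis genes were lower with none higher.

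Batch 6 carried visceral endoderm transcripts and the least Pou5f1. In its contrast 2165 genes were higher (15.4%) and 1035 lower (7.34%), or 1740 and 1281 after quantile normalization. Cer1 (chr4:82881751-82885148), which encodes a Nodal and BMP inhibitor of the anterior visceral endoderm, was at 76.8, 127 and 76.2 TPM and at most 19.6 TPM on average elsewhere (5.43 ± 0.43, limma adjusted p = 3.94e-10). Lhx1 was at 31.5, 20.5 and 23 TPM and Hesx1 at 52.8, 47.6 and 62.3 TPM, 2 homeobox genes of the same domain. Spink1 averaged 413 TPM, Ttr (transthyretin) 66.8 TPM and Apoa1 45.5 TPM, all above every other library.
Of 15 secreted endoderm genes 11 were higher and none lower (median 1.33, or 2.39 with a pseudocount of 0.1), and of 16 factors and receptors 8 were higher and none lower. Trophoblast transcripts were present as well: of 15 trophoblast factors 5 were higher and 1 lower, and Gata3, one of the higher, reached 126, 153 and 146 TPM. Of 4 tested 2-cell stage genes 3 were higher. Zscan4d, which marks a transient 2-cell-like state, was at 5.21, 7.83 and 8.18 TPM and was listed at 0 in all other groups. Its reads are shared among Zscan4 copies. The 2-cell list summed to 11.7 to 17.2 TPM in batch 6, but also to 12.1 TPM in batch 5 replicate 2 and to 2.87 to 5.24 TPM in batch 2. Pou5f1, Tdh (threonine dehydrogenase, 5.24 TPM) and Taf10 (5.58 TPM) had the largest falls among genes without overlap. Without batch 6 replicate 1 the calls came to 2097, against 3200 with it.

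Batch 5 had 1155 genes higher (8.19%) and 1068 lower (7.58%), in all 2223 calls, or 935 with library weights. Its 3 libraries were each at least as close to a library of another batch as to one another. Its largest rises without overlap were those of 3 contractile genes: Tagln at 26.5, 24.2 and 32.6 TPM (4.17 ± 0.31, limma adjusted p = 3.39e-10), Myl9 at 61.5, 100 and 57.4 TPM and Acta2 at 13.5, 10.2 and 16.6 TPM. Of 4 stromal, endothelial and decidual genes tested, the 2 higher were Tagln and Acta2, the proteoglycan gene Dcn was lower (limma adjusted p = 0.0485) and the endothelial cadherin gene Cdh5 did not pass the test. That list summed to 40.7 to 50.4 TPM in batch 5, most of it from Tagln and Acta2. Of 15 ATF4-linked genes 8 were higher and none lower (median 0.76), Trib3 foremost at 61.1, 57.2 and 80.9 TPM. The germline and maternal gene Dppa3 was at 5.77, 659 and 46.4 TPM, a mean set by 1 library, and did not pass the test in this contrast (limma adjusted p = 0.0554). Ctdspl2, Rrn3 and Traf3ip2 had the largest falls among genes without overlap.

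Batch 1 had 926 genes higher (6.57%) and 917 lower (6.50%), or 1192 and 694 after quantile normalization. Of 20 ribosomal protein genes 15 were higher and none lower, or 10 and none after quantile normalization. Batch 1 was not alone in this. Without that normalization, 12 were higher and 1 lower in batch 2, 11 and 3 in batch 3, 10 and 2 in batch 4 and 13 and 2 in batch 5. In each of batches 6 to 10 more of them were lower than higher. Of 14 basement membrane genes 6 were higher in batch 1 and none lower. Prl2c5, a proliferin of giant cells, was at 220, 203 and 248 TPM and averaged at most 71.1 TPM elsewhere (6.13 ± 0.41, limma adjusted p = 5.11e-11). Nppb (71.6 TPM) and Stfa1 (78.7 TPM) followed among genes without overlap. Of 20 keratin and placental genes 13 were higher with none lower (median 1.04, or 1.57 with a pseudocount of 0.1). The largest falls among genes without overlap were of Hsf1, Pfkl and Elmo2. The 1843 calls came down to 1097, 1095 and 1148 without replicates 1, 2 and 3 of batch 1, and library weights gave 3502.
In batch 2, 850 genes were higher (6.03%) and 841 lower (5.97%), or 1064 and 602 after quantile normalization. The chemokine gene Ccl2 was at 20.4, 47.9 and 26.4 TPM and averaged at most 0.331 TPM elsewhere, and neurotensin (Nts) was at 19.8, 25.6 and 13.6 TPM against at most 0.0659 TPM on average. The alarmin gene S100a8 averaged 88.3 TPM. Falls without overlap were led by Cpm, Dbn1 and Pspc1. The 1691 calls came down to 1120 and 1093 without replicates 2 and 3 of batch 2.
Batch 4 had 802 genes higher (5.69%) and 621 lower (4.41%), or 875 and 439 after quantile normalization. It held the highest Rhox5, at 4290, 4867 and 4767 TPM, and Btg3 (61.1 TPM) and Dcun1d5 (158 TPM) also rose, while Cd24a, Zscan10 and Fscn1 fell. The 1423 calls came down to 698, 805 and 712 without replicates 1, 2 and 3 of batch 4, and library weights gave 3220.

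Batch 9 had 3684 genes higher (26.1%) and 483 lower (3.43%). Its median gene was shifted by 0.41 on the log2 scale, and after quantile normalization the calls were 1227 higher and 977 lower. Of 18 mitosis genes 15 were higher (median 0.83), and 11 were so after quantile normalization, with none lower in either. Of 18 glycolysis genes 12 and 9 were higher under the same settings, again with none lower. Of 16 core pluripotency genes 9 and 8 were higher, and of 20 formative genes 10 and 5, also with none lower. Bmp4 had its highest mean here, 171 TPM. The iron exporter gene Slc40a1 was at 38.5, 32.3 and 44.7 TPM (2.99 ± 0.41, limma adjusted p = 4.08e-06), above every other library, as were Tug1 and Morc4. Cisd3, Selenow and Gnai2 fell most. The 4167 calls came down to 2688 and 2172 without replicates 1 and 3 of batch 9, and library weights gave 7672.
Batch 7, the pair of libraries rich in Rn45s, had 1681 genes higher (11.9%) and 3708 lower (26.3%), in all 5389 calls, or 2264 with library weights, with a median shift of -0.36. After quantile normalization the numbers were 2405 and 2609, and with Rn45s left out of the total 2316 and 2813. Replication-dependent histone H3 genes led the rises without overlap. H3c14 was at 1366 and 1023 TPM and averaged at most 14.2 TPM elsewhere (7.82 ± 0.36, limma adjusted p = 1.4e-15). Its near copies H3c15 and H3c13 followed. Cdx2, Tfcp2l1 (32.2 and 40.9 TPM) and Bag3 were also above every other library. Arglu1, a splicing factor gene, was at 5.70 and 3.81 TPM and averaged at least 144 TPM elsewhere, Klhl9 averaged 0.0487 TPM, and Txnl4b was listed at 0. The part of the Rn45s share in these differences was not tested beyond the rescaled counts.
Batch 10 had 1073 genes higher (7.61%) and 920 lower (6.53%). Endoderm lists differed: 10 of 16 factors and receptors and 9 of 14 basement membrane genes were lower, and none of the former and 1 of the latter was higher. Of 15 secreted endoderm genes 3 were higher and none lower, with a median of 0.01. The placental cathepsin gene Ctsll3 (15.9 ± 7.09 TPM), Septin1 (71.2 TPM) and Platr10 (175 TPM) rose, and Csrp1, Rn45s and Tnpo1 fell. The 1993 calls came down to 1248 without batch 10 replicate 3.

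Sex-linked genes differed between groups, and the sex of the embryos is not labelled. Xist, the RNA that coats the inactive X, was at 0, 0 and 0.0279 TPM in batch 8, at 16.7 and 20.6 TPM in batch 7 and at 8.78, 14.1 and 7.77 TPM in batch 2. The Y-linked helicase gene Ddx3y was at 3.38, 3.72 and 12.2 TPM in batch 8, averaged 18.2 TPM in batch 6 and 0.257 TPM in batch 7. Its batch 8 value did not differ from the other 9 by the test (-0.01 ± 0.38, limma adjusted p = 0.977). The Y-linked Eif2s3y, which has a close X-linked relative, was at 4.31 TPM or more in all 29 libraries, and Uty was listed at 0 in both libraries of batch 7.

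Among the 10 highest by the median of group means were Ftl1, Actb, Ppia, Tmsb10, Fth1, Rpl13, Hspa8, Rpl4 and H2az1. Ftl1, the ferritin light chain, averaged from 10010 TPM in batch 7 to 25680 TPM in batch 10, and Actb from 2218 TPM in batch 7 to 17380 TPM in batch 6. The 5 most even genes with a mean of at least 50 TPM were Eif4e2, Rpl6, Snu13, Ube2c and Rpl7a, of which all but Eif4e2 passed the F test. Eif4e2, a cap-binding protein gene, ran from 109 to 199 TPM over the 29 libraries with an SD of 0.16 on the log2 scale (limma F test adjusted p = 0.318).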

How the data were processed

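Polyadenylated RNA of 29 wild-type control libraries was measured by Smart-seq2. The deposited values are TPM per gene symbol, made by the authors and used as deposited. The submitters' processing notes name HISAT2 2.2.1, StringTie 2.2.1, Cufflinks and the mm10 build without their roles, and counts and depth are not given in the sources used here, so no counting interval could be formed.

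Groups follow the batch number in the sample titles. The genes kept reached 1 TPM in 2 or more libraries. Their TPM values, after adding 1 and taking log2, went into limma (version 3.58.1, R version 4.3.3; empirical Bayes with a mean trend, 1 fit of all 29 libraries, Benjamini-Hochberg adjustment within each contrast over all tested genes, threshold 0.05); the script was first tested on simulated data. Lists were described by counts and medians with no set test. Level sums, coordinates (472 of 481 symbols matched to GENCODE) and promoters (RefSeq) were computed with Python 3.11.15.

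Named genes are the 10 most abundant, 18 defining genes, the 12 of widest range, the 3 largest rises and falls per group without overlap and with at least 5 TPM, up to 4 members per list and the 5 most even. Other genes were chosen after their values were seen, as list members behind a count. The libraries, gene lists and tests were chosen with earlier results of these data known. Alternatives were a pseudocount of 0.1, no filter, quantile normalization, a replicate block and leaving out each library or batch 8. Library weights, leaving out batch 7 or 3, and leaving out Rn45s were chosen after seeing the data. Some named items are not reported here.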

Additional observations from a re-analysis of the deposited data

How the results depend on the processing

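The number of genes that differed among groups ran from 8598 (without batch 3) to 10617 (library weights) under the alternatives with all libraries or without a batch, and from 8920 to 9791 when 1 library was left out. The calls of batch 8 were 7093 without batch 7 and 6315 without batch 3. Quantile normalization moved the calls of batch 9 from 4167 to 2204. Library weights, which give noisier libraries less influence, moved them to 3502 in batch 1, 6009 in batch 3, 3220 in batch 4, 935 in batch 5, 2264 in batch 7, 4261 in batch 8 and 7672 in batch 9; the cause was not tested. Leaving out 1 library at a time gave 1095 to 2131 calls in batch 1, 1093 to 1978 in batch 2, 698 to 1673 in batch 4, 2097 to 3598 in batch 6, 2172 to 4634 in batch 9, 1248 to 2324 in batch 10 and 5973 to 6958 in batch 8. The lowest values of the first 6 came from leaving out a library of the batch itself, which leaves it fewer samples.

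Replicate numbers did not pair the samples: over 126 pairs of same-numbered libraries of different batches the correlation of deviations ran from -0.119 to 0.084. With the number as a block, 9382 genes differed among groups and 6590 in batch 8.

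Of the 7232 values recomputed for named genes, 7151 kept direction and call, 68 lost the call, 2 gained it and 11 changed sign. Those that changed sign were Ftl1 in batch 8 (-0.32, and 0.17 after quantile normalization), Rpl7a in batch 7 (-0.42, and 0.069 after quantile normalization) and Ddx3y in batch 8, which passed no test and was -0.01, 0.24 with a pseudocount of 0.1, 0.13 without batch 3 and -0.53 to 0.27 with 1 library left out. Gata4 in batch 8 lost its call without batch 3 (limma adjusted p = 0.0801), with library weights (0.0975) and without any 1 library of batch 8 (0.0677 to 0.0685).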
